A study of Mus musculus with 10 samples.

Results

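Of 58242 autosomal regions enriched for at least 1 of 4 histone H4 marks in mouse male germ cells, 1306 were called for H4K5ac alone in spermatocytes and for H4K5bu, H4K8bu or both in round spermatids. H4K5ac is histone H4 acetylated at lysine 5; H4K8ac is its acetylation at lysine 8, and H4K5bu and H4K8bu are H4 butyrylated at lysine 5 or lysine 8. An island is a stretch in the authors' deposited list with more immunoprecipitated (ChIP) than input reads after scaling by a constant of the list. Its fold is the scaled ratio of the reads. The regions were chosen by which deposited lists of enriched islands covered them, so the presence of spermatocyte H4K5ac, the absence of the other 3 spermatocyte calls and the presence of a butyryl call in round spermatids are the choice itself and not findings. What the choice did not directly fix is described here. It is how strong and how long the islands were, and which acetyl marks accompanied the butyryl marks. It is also how far the butyryl islands reached, and which of the regions with H4K5ac alone were butyrylated later. The choice can still bear on these values.

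The tissue was testis of Oncins France 1 mice, from which round spermatids and spermatocytes had been fractionated. Spermatocytes are the germ cells in meiosis, and round spermatids are the haploid cells that follow. Each stage had 1 library for each of the 4 marks (H4K5ac, H4K5bu, H4K8ac and H4K8bu), immunoprecipitated from mononucleosomes, and 1 input library of nucleosomes sequenced before immunoprecipitation. The sources used here give no age, no agent and no number of animals behind a library. The lists name no genes, so the purity of the cell fractions could not be checked against marker genes, and a region is identified by its position in the mouse build mm9, counted from 1. With 1 library per group, no difference between libraries could be set against replicates and no p-value was computed. The lists held 28031 to 44291 islands per library. Intervals are exact 95% intervals that cover counting error only, and quartiles describe the spread between regions.

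Acetyl groups on lysines 5 and 8 of histone H4 neutralise the charge of the histone tail and are read by bromodomain proteins. In male germ cells the testis protein BRDT binds H4 that carries acetyl groups on both lysines, and it takes part in gene activity in meiosis and in the later removal of histones from sperm chromatin. Butyryl is a longer acyl group that can occupy the same lysines, and butyryl on lysine 5 is known to hinder the binding of BRDT. A single lysine carries an acetyl or a butyryl group, never both, so calls of both at 1 place come from different histone molecules, in the same or in different cells. A higher share of cells with a mark and more of the mark per cell cannot be told apart here.

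In round spermatids the regions had fewer calls of H4K8ac, and less often all 4 marks, than other butyrylated regions with a spermatocyte mark. All 4 marks were the most frequent set, with 760 regions or 58.2% (55.5 to 60.9), against 75.2% (74.6 to 75.7) of the 25639 other autosomal regions that had a spermatocyte mark and a butyryl call. H4K8ac was called in 789 (60.4%, 57.7 to 63.1), against 77.2% of those regions, and both butyryl marks in 1088 (83.3%, 81.2 to 85.3), against 86.3%. H4K5ac was called in 1215 (93.0%, 91.5 to 94.4), against 91.7% (91.3 to 92.0), where the intervals overlap. The set that lacked only H4K8ac held 310 regions or 23.7% (21.5 to 26.1), against 9.74% of those regions. The regions had a median length of 4000 bp, against 6400 bp in those regions.

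The comparison depends on which regions are set beside them. Over all 37237 other butyrylated regions, which include 11598 without a spermatocyte mark, the share was 84.2% for H4K5ac, 61.8% for H4K8ac, 77.1% for both butyryl marks and 59.2% for all 4 marks. Beside these the 1306 regions lay higher for H4K5ac and for both butyryl marks, and their intervals held the value for H4K8ac and for all 4 marks. With the upper 50% of each list by fold, 84.5% of the regions that met the choice had H4K5ac.

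Smaller sets completed the account of the 1306. H4K5ac with H4K5bu alone was called in 63 and H4K5ac with H4K8bu alone in 56. A change from H4K5ac in spermatocytes to butyryl marks without any acetyl mark in round spermatids was rare, with 88 regions or 6.74% (5.44 to 8.24). The share without an acetyl call was 7.62% of the other butyrylated regions with a spermatocyte mark, inside that interval, and 14.7% of all other butyrylated regions. The 88 regions were 59 with H4K5bu alone, 17 with both butyryl marks and 12 with H4K8bu alone. The remaining sets were H4K5ac, H4K5bu and H4K8ac with 13 regions, H4K5ac, H4K8ac and H4K8bu with 13, H4K5bu and H4K8ac with 2, and all but H4K5ac with 1. Where a single butyryl mark was called, it was H4K5bu in 137 regions and H4K8bu in 81. For H4K5bu this was 10.49% (8.88 to 12.28) of the 1306, and for H4K8bu 6.20% (4.96 to 7.65). In the other butyrylated regions with a spermatocyte mark the shares were 11.03% and 2.70%. In all other butyrylated regions they were 17.94% and 4.96%. Beside those with a spermatocyte mark, the 1306 regions were thus higher for H4K8bu, while the H4K5bu interval held the value.

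**Figure D1:**
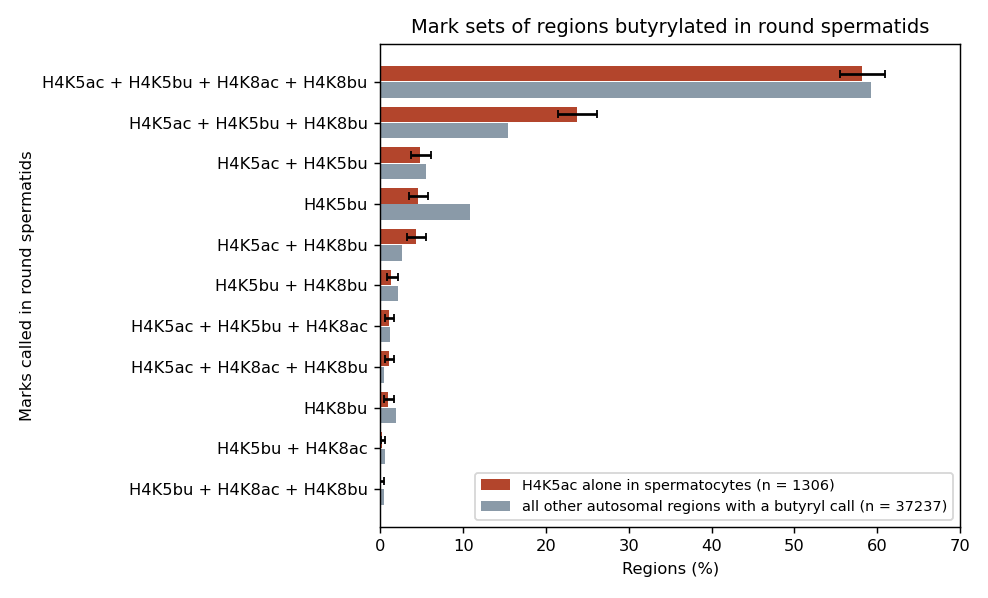
Percent of regions (x axis) with each set of marks in round spermatids (y axis), for the 1306 regions with H4K5ac alone in spermatocytes (upper bar, with exact 95% interval) and the 37237 other autosomal regions with a butyryl call (lower bar). All 4 marks were the most frequent set in both, 58.2% and 59.2%, and butyryl at lysine 5 alone was 4.52% and 10.8%. Of the other regions, 11598 had no spermatocyte mark.

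All 4 marks were called in round spermatids more often than in butyrylated places without a spermatocyte mark, and less often than in those with H4K5ac and H4K8bu or with all 4 marks in spermatocytes. Among 11598 butyrylated regions without a spermatocyte call, H4K5ac was called in 67.9% and all 4 marks in 23.9% (23.1 to 24.7). Among 2066 butyrylated regions with H4K5ac and H4K8bu alone in spermatocytes, H4K5ac was called in 96.9% and all 4 marks in 77.5% (75.6 to 79.3). Among 19805 with all 4 marks in spermatocytes, the values were 92.6% and 78.5% (77.9 to 79.1). The 58.2% of the regions with H4K5ac alone lay between these, outside the counting intervals of each. The median lengths of the regions followed a similar order, at 4000 bp for the regions with H4K5ac alone, 2800 bp without a spermatocyte mark, 5000 bp with H4K5ac and H4K8bu and 7000 bp with all 4. The part of region length in these shares was not tested.

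The spermatocyte H4K5ac islands were weak for their list. Their median fold over input was 2.84 (quartiles 2.36 and 3.51), against 5.71 in the 38516 other autosomal regions with spermatocyte H4K5ac. Of all 39822 regions with spermatocyte H4K5ac, 9.67% had a fold below that median, and 4.67% of the 1306 regions lay above the median of all. The median fold was 3.91 in the regions with H4K5ac alone and no later butyryl call. Among butyrylated regions it was 3.14 with H4K5ac and H4K8bu alone in spermatocytes and 7.66 with all 4 marks there. The choice took places where 3 marks were not called, and its part in the low fold was not tested. In the 1306 regions the spermatocyte island had a median of 51 H4K5ac reads over 31 input reads in 2000 bp. H4K5ac alone therefore means that the other 3 marks were not called at a weakly enriched place, which is not a measured absence of those marks. The choice kept no region that held another spermatocyte mark, so some distance to those marks was built in. The nearest spermatocyte island of another mark was a median of 20400 bp away (quartiles 7850 and 52750), and it was within 1000 bp in 30 regions (2.30%). For the regions with H4K5ac alone and no later butyryl call the median was 12500 bp (quartiles 5200 and 28400), with 4.00% within 1000 bp.

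In round spermatids the islands were of moderate strength. The median fold was 3.82 for H4K5ac (quartiles 3.12 and 4.61), against 4.59 in the other autosomal regions called for it. It was 2.92 for H4K5bu (2.48 and 3.47) against 3.53 elsewhere, 2.51 for H4K8ac (2.15 and 2.98) against 3.13, and 2.95 for H4K8bu (2.54 and 3.51) against 3.53. With the upper 50% of each list by fold, the medians were 4.75 for H4K5bu and 4.77 for H4K8bu. Each median over all islands lay below that of the rest of its list, but not as far below as that of H4K5ac in spermatocytes. The share of the 1306 regions' calls above the median of the whole list was 27.6% in H4K5ac, 24.1% in H4K5bu, 20.9% in H4K8ac and 25.5% in H4K8bu. All 4 medians were above those of butyrylated regions that had no spermatocyte mark, where H4K5ac had 3.48, H4K5bu 2.71, H4K8ac 2.41 and H4K8bu 2.78.

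**Figure D2:**
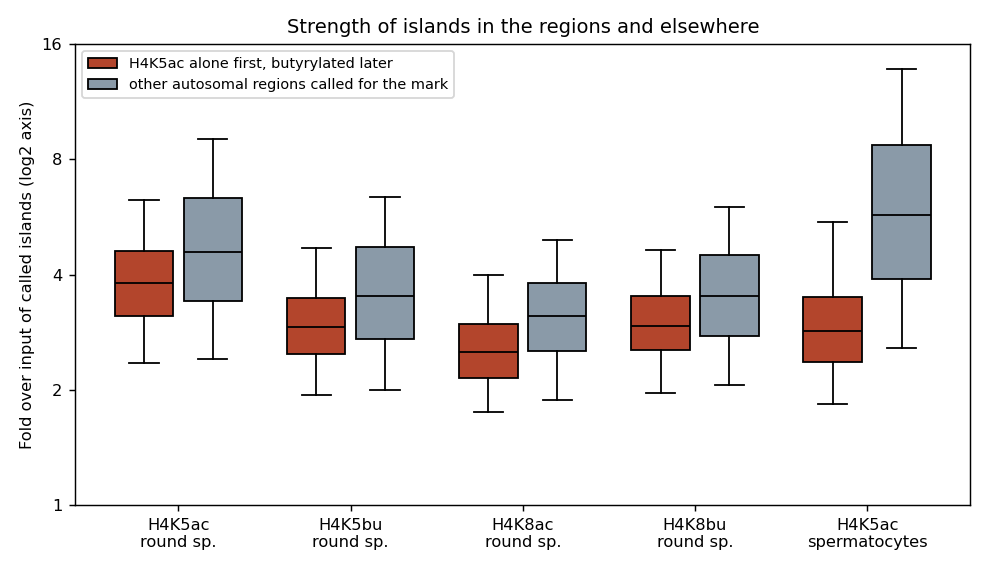
Fold over input of the called islands of a region (y axis, log2 scale), for the 4 marks of round spermatids and H4K5ac of spermatocytes (x axis). Boxes give the quartiles and median and whiskers the 5th and 95th percentiles over the regions called for the mark; the left box of each pair is the 1306 regions with H4K5ac alone first and butyryl later, the right one all other autosomal regions called for the mark. The gap is widest for spermatocyte H4K5ac, with medians of 2.84 and 5.71.

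H4K5ac was mostly higher in round spermatids than in spermatocytes where both stages were called. Over the 1215 regions with H4K5ac in both, the median fold was 3.82 in round spermatids against 2.84 in spermatocytes, a median difference of 0.40 on the log2 scale (quartiles 0.071 and 0.74). The fold was higher in round spermatids in 954 of them (78.5%), against 39.8% of the 24559 autosomal regions with H4K5ac in both stages, whose median difference was -0.25. Butyrylated regions with H4K5ac and H4K8bu alone in spermatocytes also had a higher median fold in round spermatids. It was 4.23 over the 2001 regions called there, against 3.14 over 2066 in spermatocytes. Region by region, the intervals of the folds overlapped in 1116 of the 1215. In 95 the fold of round spermatids was higher with no overlap, and in 4 it was lower. Such counts were not made for other regions, so they are not known to be particular to this set. The choice of regions bears on the direction of the H4K5ac difference. Places were kept where spermatocytes lacked 3 calls and round spermatids had a butyryl call, so the difference is a description of the chosen regions. It was smaller among stronger islands, with a median of 0.15 where only the upper 50% of each list by fold was used and 0.13 where all lists were shortened to 28031 islands.

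The islands of H4K5ac were also longer in round spermatids. Their median length was 3200 bp in round spermatids against 2000 bp in spermatocytes, and the island was longer in round spermatids in 1086 of 1215 regions (89.4%). Over all other autosomal regions with H4K5ac in both stages the medians were 5000 and 3800 bp, and 72.4% had the longer island in round spermatids. In butyrylated regions with H4K5ac and H4K8bu alone in spermatocytes, the medians were 3800 bp in round spermatids and 2200 bp in spermatocytes. The input count under the islands had a median of 18.1 reads per kb in round spermatids, against 16.1 in spermatocytes. In the other autosomal regions with H4K5ac in both stages the medians were 16.8 and 13.6. Each stage had its own input library, and these counts were not scaled for depth. Limited to the 829 regions where the islands of both stages shared at least 50% of the longer one, the median difference of the fold was larger, 0.52.

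Among the 6 mark sets with H4K5ac in round spermatids, the median difference in H4K5ac between the stages was largest with all 4 marks. It was 0.53 (log2) in the 760 regions with all 4 marks in round spermatids, 0.25 in the 310 without H4K8ac, 0.24 in the 56 with H4K5ac and H4K8bu alone and 0.034 in the 63 with H4K5ac and H4K5bu alone. In the sets of 13 regions each it was 0.19 with H4K5ac, H4K8ac and H4K8bu and 0.11 with H4K5ac, H4K5bu and H4K8ac. In the 4 larger sets the spermatocyte fold did not follow this order, with medians of 2.81, 2.92, 2.51 and 3.05. In round spermatids the H4K5ac fold had medians of 4.05, 3.46, 3.12 and 3.08 in these sets. The 59 regions with H4K5bu alone had a spermatocyte H4K5ac fold of 3.06 and a round spermatid H4K5bu fold of 2.32, the lowest median H4K5bu fold among the sets with H4K5bu given here (3.10 with all 4 marks, 2.71 without H4K8ac and 2.70 with H4K5ac alone). The part of the calling threshold in these orders was not tested.

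**Figure D3:**
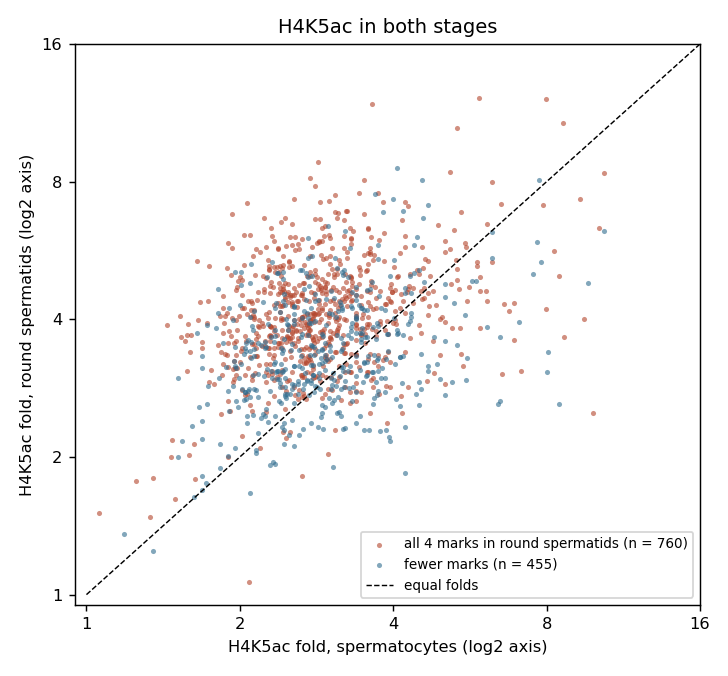
H4K5ac fold in round spermatids (y axis) against spermatocytes (x axis), both on log2 scales, for the 1215 regions called for H4K5ac in both stages. Each point is a region, red with all 4 marks in round spermatids (760) and blue with fewer; 954 points lie above the dashed line of equal folds.

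The butyryl islands mostly held the whole of the spermatocyte H4K5ac islands. In 1304 of the 1306 regions a butyryl island of round spermatids shared bases with the spermatocyte H4K5ac island. The choice largely fixed this overlap, since a region is a chain of overlapping islands that had to hold both. In the 88 regions without an acetyl call in round spermatids the overlap was required. In 1089 (83.4%, 81.3 to 85.4) the butyryl islands held the whole of the H4K5ac island, and in 902 (69.1%) they reached beyond it on both sides. The butyryl islands of a region spanned a median of 3600 bp, against 2000 bp for the spermatocyte H4K5ac island, which took up a median of 50.0% of the butyryl bases. The centres were a median of 400 bp apart, on lists whose edges lie on a grid of 200 bp. Where round spermatids kept H4K5ac, a butyryl island overlapped its island in 1215 of 1215 regions, which the chain of islands also makes likely. No such shares were computed for other regions.

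The ratios of butyryl to acetyl at the same lysine had medians close to those of other places in round spermatids. At lysine 5 the H4K5bu fold was below the H4K5ac fold, by a median log2 ratio of -0.38 (quartiles -0.57 and -0.17) over the 1146 regions with both, against -0.37 over 30245 other regions. At lysine 8 the H4K8bu fold was above the H4K8ac fold, with a median of 0.29 (0.078 and 0.48) over 774 regions, against 0.32 over 22407 others. Between the butyryl marks, the log2 ratio of H4K5bu to H4K8bu had a median of -0.017 over 1088 regions, against 0.076 over 28708 others. The folds compare different antibodies over islands of unequal extent with 1 shared input, so the level of a ratio has no absolute meaning, and only its place among other regions does.

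The regions with H4K5ac alone in spermatocytes were a set of 3058, and 42.7% (40.9 to 44.5) of them were butyrylated later. With the upper 50% of each list by fold, 541 regions met the choice and the share was 27.0%. Over all autosomal regions 66.2% had a butyryl call in round spermatids, and 59.4% of those with any spermatocyte mark. Butyryl calls went together with H4K5ac calls in round spermatids. Of the 1308 regions that had H4K5ac there, 1215 (92.9%, 91.4 to 94.2) had a butyryl call, and of the 1750 that had not, 91 (5.2%, 4.21 to 6.35) had one. In the other autosomal regions the shares were 93.8% with H4K5ac in round spermatids against 27.0% (26.4 to 27.6) without it. The 27.0% includes regions with no spermatocyte mark, which enter only through a call in round spermatids, so that without H4K5ac 96.2% of them had a butyryl call. In the other regions with a spermatocyte mark the shares were 96.3% with H4K5ac and 12.0% (11.5 to 12.5) without it. Of the 1752 regions that were not butyrylated, 1651 had no mark at all in round spermatids and 93 had H4K5ac.

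The share butyrylated later differed by which mark spermatocytes had. Among single marks, 53.3% (50.9 to 55.8) of 1641 regions with H4K8bu alone were butyrylated in round spermatids, 42.7% of those with H4K5ac alone, 10.5% (9.17 to 12.0) of 1852 with H4K5bu alone and 9.06% (7.32 to 11.1) of 960 with H4K8ac alone. H4K5ac together with H4K8bu gave 64.9% (63.2 to 66.6) of 3183. H4K5ac together with H4K5bu gave 18.0% (15.6 to 20.6) of 934, and together with H4K8ac 13.9% (11.1 to 17.1) of 553. All 4 marks gave 72.9% of 27155. The lists of H4K5ac and H4K8bu were also the longest of spermatocytes, with 43505 and 40695 autosomal islands, against 37578 for H4K5bu and 35370 for H4K8ac, and the part of list length in these shares was not tested.

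**Figure D4:**
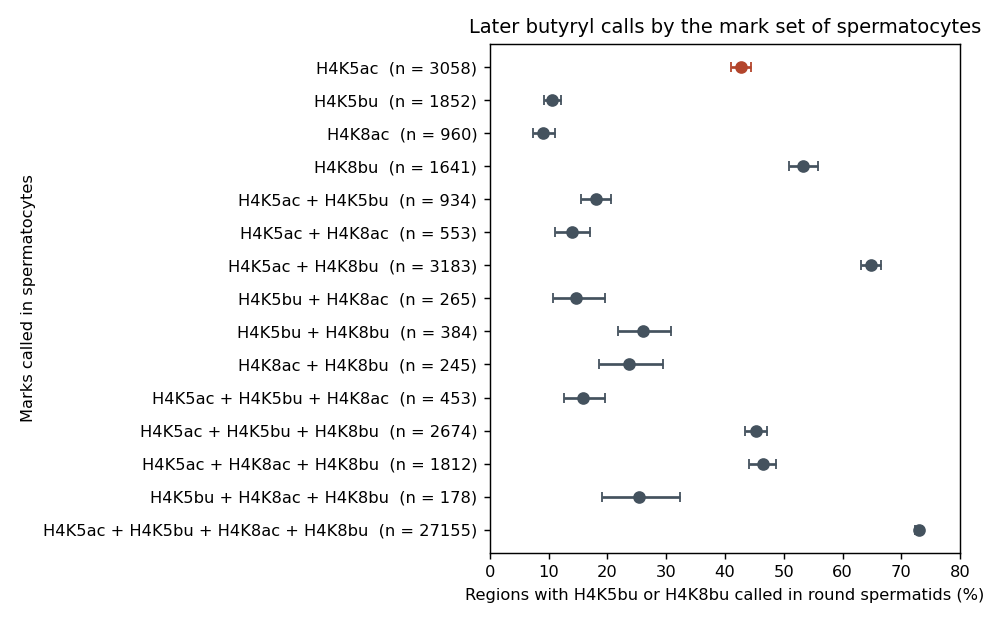
Percent of regions with a butyryl call in round spermatids (x axis, with exact 95% binomial intervals) for each set of marks called in spermatocytes (y axis, with the number of autosomal regions). H4K5ac alone (red) stands at 42.7%, between H4K8bu alone at 53.3% and H4K5bu alone at 10.5%.

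Within the regions with H4K5ac alone in spermatocytes, the later butyrylated ones had longer islands with more H4K5ac reads but a lower fold. Their spermatocyte H4K5ac fold had a median of 2.84, against 3.91 (quartiles 3.00 and 5.31) in the 1752 regions without a later butyryl call. Their island length had a median of 2000 bp against 1400 bp, and the input under it 16 reads per kb against 13.8. The island held a median of 51 H4K5ac reads, against 43. These spermatocyte values were not used to separate the groups, but regions of either group had been chosen by spermatocyte calls.

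The share butyrylated later was lower at higher spermatocyte folds. It was 65.5% (62.0 to 68.9) of the 765 regions with folds up to 2.61, then 54.2%, 35.3% and, for folds of 4.57 and more, 15.7% (13.2 to 18.5), in 4 classes cut at the quartiles. It was higher for longer H4K5ac islands, at 23.1% (20.5 to 25.8) up to 1200 bp, 42.1% from 1400 to 1600 bp, 53.0% from 1800 to 2200 bp and 62.5% (58.6 to 66.3) from 2400 bp. By input reads per kb under the island, from the lowest to the highest class, it was 21.2, 42.3, 57.1 and 53.1%. By the number of H4K5ac reads it was higher with more reads, 22.8% (20.0 to 25.8) up to 39 reads, then 38.3%, 51.5% and, from 57 reads, 61.0% (57.3 to 64.6), the opposite order to that by fold. The orders by fold and by length were also seen when islands were split at 1600 bp and at a fold of 3.33. Of long islands of low fold 67.7% (64.6 to 70.6) were butyrylated, of long islands of high fold 33.3%, of short islands of low fold 46.0% and of short islands of high fold 22.6% (20.2 to 25.2). The median input under the island was 31 reads in the butyrylated regions and 19 in the others, and its part in these shares was not tested.

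**Figure D5:**
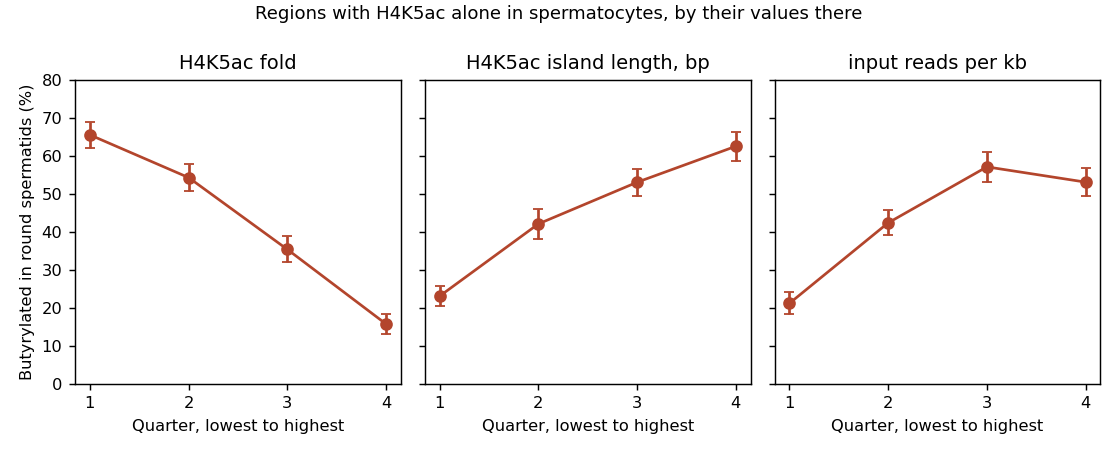
Percent of the 3058 regions with H4K5ac alone in spermatocytes that had a butyryl call in round spermatids (y axis, with exact 95% binomial intervals), in 4 classes cut at the quartiles of 3 spermatocyte values (x axes): the H4K5ac fold, the H4K5ac island length and the input reads per kb. By fold the share is 65.5% in the lowest and 15.7% in the highest class; by length it is 23.1 and 62.5%.

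The regions lay on all 19 autosomes. Chromosome 1 held the most, 111 or 8.50%, and chromosome 19 the fewest, 30 or 2.30%. These chromosomes had 4112 and 1620 autosomal regions in all, of which the 111 and the 30 were 2.70% and 1.85%. Over the chromosomes this share ran from 1.69% on chromosome 11 to 2.99% on chromosome 6. The share of regions with H4K5ac alone that were butyrylated later ran from 32.6% (25.7 to 40.1) on chromosome 11 to 52.1% (43.6 to 60.6) on chromosome 12. These are the extremes of the 19 autosomes, and their intervals do not allow for picking them. The nearest region with all 4 marks in spermatocytes was a median of 32700 bp away, against 19000 bp for the regions with H4K5ac alone and no later butyryl. Within 5000 bp of such a region lay 13.3% of the butyrylated and 18.4% of the other regions.

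A region was named for each of the 4 most frequent sets, the one whose spermatocyte H4K5ac fold was nearest the median of the set. Their values in round spermatids were not chosen to be typical. For all 4 marks it lay at chr1:95739401-95743000. There round spermatids had 121 H4K5ac reads over 51 input reads, a fold of 5.02 (3.59 to 7.11), and spermatocytes 60 over 36, a fold of 2.81 (1.83 to 4.38). Its other round spermatid folds were 3.34 (2.45 to 4.59) for H4K5bu from 138 reads over 61, 3.44 (2.04 to 6.03) for H4K8ac from 51 over 21 and 3.31 (2.38 to 4.64) for H4K8bu from 119 over 55. H4K5ac was higher in round spermatids by value, with intervals that overlapped, and its fold there was above the upper quartile of the set, 4.83. For the set without H4K8ac it lay at chr2:155921001-155927400, where the fold of H4K5ac was 2.30 (1.58 to 3.34) in round spermatids against 2.92 (1.68 to 5.18) in spermatocytes. Its butyryl folds were 2.35 (1.74 to 3.21) for H4K5bu and 2.32 (1.77 to 3.04) for H4K8bu. Its H4K5ac difference of -0.34 lay below the lower quartile of its set, -0.10. For H4K5bu alone it lay at chr2:144162001-144164200, with an H4K5bu fold of 2.19 (1.45 to 3.34) from 61 reads over 41 in round spermatids and an H4K5ac fold of 3.06 (1.95 to 4.87) from 58 over 32 in spermatocytes. For H4K5ac with H4K5bu it lay at chr10:17580401-17585000, where the folds of round spermatids were 1.90 (1.38 to 2.61) and 2.14 (1.56 to 2.95) and the spermatocyte fold of H4K5ac was 3.05 (1.93 to 4.89). Its H4K5ac difference of -0.68 also lay below the lower quartile of its set, -0.39.

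Of the 1088 regions with both butyryl marks, 760 had all 4 marks. With at least 50 ChIP and 10 input reads in each butyryl list, 4 of the 5 with the strongest butyryl marks had all 4. The first, at chr3:49127601-49130000, had folds of 7.24 (4.54 to 12.0) for H4K5bu from 108 reads over 22 and 9.68 (5.58 to 18.0) for H4K8bu from 95 over 15. Its fold of H4K5ac was 10.8 (6.90 to 17.4) in round spermatids against 8.61 (4.32 to 19.0) in spermatocytes, the spermatocyte value from 51 reads over 10, so it was also among the strongest H4K5ac places of the set in spermatocytes. The second, at chr12:84404801-84412000, rests on more reads. It had 208 H4K5bu reads over 44, a fold of 6.97 (5.01 to 9.88), 291 H4K8bu reads over 61, a fold of 7.29 (5.52 to 9.78), and 305 H4K5ac reads over 53, a fold of 12.2 (9.07 to 16.6), in round spermatids. In spermatocytes it had 108 H4K5ac reads over 31, a fold of 5.88 (3.91 to 9.08), and the H4K5ac islands spanned 6200 bp in round spermatids against 3400 bp in spermatocytes. Further ones were chr14:90496401-90500800, chr7:51149201-51150600 and chr12:36576401-36578200, with H4K5bu folds of 6.63, 6.0 and 5.98 and H4K8bu folds of 6.54, 7.10 and 7.10. The one on chromosome 7 had no H4K8ac call.

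The largest difference of H4K5ac in favour of round spermatids lay, with the same read minimum, at chr19:11318001-11323000. Its fold was 11.8 (7.61 to 19.1) from 134 reads over 24 in round spermatids against 3.63 (2.47 to 5.42) from 86 over 40 in spermatocytes, a log2 difference of 1.7 with intervals that did not overlap. The butyryl folds there were 5.62 (4.13 to 7.76) for H4K5bu and 5.53 (4.03 to 7.73) for H4K8bu. The next, at chr8:31659601-31663000, had H4K5ac folds of 8.85 (6.02 to 13.4) in round spermatids against 2.84 (1.87 to 4.37) in spermatocytes, and butyryl folds of 4.42 and 4.04. At chr3:36387401-36396200 H4K5ac had a fold of 5.88 (4.55 to 7.67) in round spermatids, against 1.89 (1.41 to 2.54) in spermatocytes, from 228 reads over 82 and 102 over 91. At chr18:27223801-27227600 the difference was 1.59, with an H4K5ac fold of 5.24 in round spermatids against 1.74 in spermatocytes. In these 4 regions all 4 marks were called in round spermatids, as in 760 of the 1215 regions with H4K5ac in both stages.

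Where H4K5ac was lower in round spermatids, 3 of the 4 largest differences lay in regions with fewer than 4 marks. Of the 1215 regions with H4K5ac in both stages, 760 had all 4. With 4 picked regions, this count does not describe the set. At chr15:75863601-75866600 the fold of H4K5ac was 2.61 (1.71 to 4.00) in round spermatids against 6.42 (3.58 to 12.2) in spermatocytes, a log2 difference of -1.30. H4K5bu alone accompanied it, with a fold of 2.25 (1.44 to 3.58). At chr1:154661201-154664400 the H4K5ac folds were 2.66 (1.81 to 3.92) in round spermatids against 6.49 (3.48 to 13.0) in spermatocytes, with H4K5bu at 2.43 and H4K8bu at 3.47. At chr19:32417001-32424000 they were 1.84 (1.42 to 2.39) in round spermatids against 4.22 (2.47 to 7.48) in spermatocytes, without overlap of the intervals. Here the H4K5ac islands spanned 6400 bp in round spermatids against 1400 bp in spermatocytes. The other was the barely enriched chr8:19765201-19793800, at 1.07 in round spermatids against 2.08 in spermatocytes.

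The highest spermatocyte H4K5ac fold from at least 50 ChIP and 10 input reads belonged to a region that kept no acetyl call. It lay at chr15:36137201-36141200, where round spermatids had H4K5bu alone, 105 reads over 70, a fold of 2.21 (1.62 to 3.04), and spermatocytes had 57 H4K5ac reads over 10, a fold of 9.62 (4.87 to 21.1). The next after the one on chromosome 3 given above lay at chr15:99546401-99551600, with all 4 marks in round spermatids. Its fold of H4K5ac was 4.20 (3.16 to 5.64) in round spermatids against 7.98 (4.11 to 17.0) in spermatocytes. At chr10:92244601-92246800 the H4K5ac folds were 7.10 (4.71 to 11) in round spermatids against 7.88 (4.17 to 16.1) in spermatocytes, so this place was strong in both stages, with an H4K5bu fold of 6.31 (4.05 to 10.2) in round spermatids. At chr16:31253401-31255600 they were 5.89 (3.61 to 9.94) in round spermatids against 7.67 (3.94 to 16.3) in spermatocytes, with H4K5bu but neither lysine 8 mark. Each of these spermatocyte values rests on 10 to 12 input reads.

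Single regions departed from the common balance at lysine 5. Butyryl was highest relative to acetyl at chr8:55627201-55630400, with folds of 3.72 (2.26 to 6.32) for H4K5bu and 2.09 (1.49 to 2.92) for H4K5ac in round spermatids, a log2 ratio of 0.83. It was lowest at chr15:19882401-19884800, with 2.67 (1.82 to 3.98) for H4K5bu and 7.55 (4.70 to 12.6) for H4K5ac, a log2 ratio of -1.50. At lysine 8 the same place had the reverse, with H4K8bu at 6.24 (3.96 to 10.2) and H4K8ac at 2.17 (1.36 to 3.5), a log2 ratio of 1.52. The next highest ratios were 0.71 at chr5:4086801-4090600 and 0.68 at chr2:118895001-118899400, and the next lowest -1.33 at chr4:74510001-74514000 and -1.25 at chr4:142149201-142151600. For the highest and the lowest, the intervals of the lysine 5 folds overlap at chr8:55627201-55630400 and not at chr15:19882401-19884800.

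A few regions that satisfied the choice had almost no enrichment. The longest butyryl islands lay at chr9:2999801-3038600, where over 42118 input reads the H4K5bu fold was 1.14 (1.12 to 1.16) in round spermatids, and where the spermatocyte fold of H4K5ac was 1.06 (1.04 to 1.07). Next came chr8:19765201-19793800, with an H4K5bu fold of 1.10 (1.04 to 1.16) in round spermatids, and chr17:13410201-13428400, with 1.82 (1.49 to 2.22). In all, 4 of the 1306 regions (0.31%) had over 500 input reads in a list and 27 (2.07%) had any fold under 1.5. Such counts were not made for other regions. Without the 4 regions, 93.0% of 1302 had H4K5ac in round spermatids and the median difference of H4K5ac was 0.40.

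At the edge of the choice, the smallest overlap of a butyryl island with another island of the region was 200 bp, the step of the grid, in 6 regions. At chr3:94763401-94767400, 200 bp were shared between an H4K5bu island of fold 1.95 (1.33 to 2.87) in round spermatids and an H4K5ac island of fold 3.94 (2.40 to 6.65) in spermatocytes. Others were chr3:128639401-128639800 and chr5:93718601-93718800, short regions with spermatocyte H4K5ac folds of 2.09 (1.13 to 3.91) and 1.69 (0.918 to 3.10). Just outside, 6 regions with H4K5ac alone touched a butyryl island with no shared base, as at chr1:136357401-136358000, with a spermatocyte H4K5ac fold of 3.94 (1.94 to 8.50) from 28 reads over 12. At chr4:147441801-147443000 and chr8:67097601-67099800 the folds were 8.65 (4.00 to 21.4) and 2.22 (1.43 to 3.48).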

How the data were processed

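For 8 immunoprecipitated libraries the authors deposited island lists without headers, giving ChIP and input counts, the p-value, the q-value and the fold of every island. Dividing that deposited fold by the ratio of ChIP to input counts gave the same constant throughout a list. Every deposited q-value was below 0.01. The submitters' processing notes name SICER, deepTools 1.5.11, Bowtie2 2.2.5, CASAVA 1.8.2 and mm9; settings and the treatment of duplicate reads are not given in the sources used here. Lists held 4768412 to 9230541 ChIP reads in islands, and total depth is unknown.

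Islands of the 8 lists on chromosomes 1 to 19 sharing at least 1 bp were merged into regions, and the counts of a list's islands in a region were summed for its fold. Shares have Clopper-Pearson intervals and folds exact conditional binomial ones (95%). These cover counting error only, since copies made by PCR cannot be told from separate molecules. The members, groups and rules were chosen with earlier results of these data known. Regions named had the highest butyryl or spermatocyte H4K5ac fold, the largest H4K5ac differences or extreme lysine 5 ratios (each with at least 50 ChIP and 10 input reads), the longest butyryl islands, the fold most typical of a mark set, or a place at the edge of the choice. The comparison with regions that had a spermatocyte mark was added after the shares had been seen. The calculations were tested on simulated islands. No genome or annotation of mm9 was used here, so neither gene names nor sequences are given. Python 3.11.15, pandas 2.3.3, numpy 2.4.6 and scipy 1.17.1 were used.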

Additional observations from a re-analysis of the deposited data

How the results depend on the processing

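Of 68 values recomputed under other settings, 49 stayed within their counting interval or, for the number of regions, within 1.5 times, and 19 moved. Only the H4K5ac difference and the lysine 5 ratio could change sign, because the other values are always positive, and neither did. Keeping the upper 50% of each list by fold left 541 regions, and shortening every list to 28031 islands left 471. With the upper 50%, 84.5% had H4K5ac and 75.6% both butyryl marks in round spermatids, 27.0% of the regions with H4K5ac alone were butyrylated later, and the medians were 0.15 for the H4K5ac difference, 4.75 for the H4K5bu fold, 4.77 for the H4K8bu fold and -0.56 for the lysine 5 ratio. With lists of equal length these values were 87.0%, 77.7%, 31.4%, 0.13, 3.94, 3.89 and -0.52. Folds rise in both settings by construction, because weak islands are removed. With spermatocyte H4K5ac islands as the unit, 45.7% were butyrylated later and 100% overlapped a butyryl island, which that unit requires. The H4K5ac difference was 0.52 where the islands of both stages shared at least 50% of the longer one. A stricter q-value, a larger required overlap, joining islands up to 600 bp apart, a minimum of 30 ChIP and 10 input reads and, chosen after seeing the data, leaving out regions of over 500 input reads moved none of the values computed under them. No paired analysis was possible because each group had 1 library, and for the same reason no replicate could be left out. The median region had 51 H4K5ac reads in spermatocytes. In 1116 of the 1215 regions with H4K5ac in both stages, the intervals of the folds overlapped. Such overlap neither separates the stages in a region nor shows that its difference is counting error. No interval was computed for the difference in a single region.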
